A study of Mus musculus with 2 samples.

Results

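The genes described are 8 intermediate filament genes, chosen by symbol: the neurofilament subunit genes Nefl, Nefm and Nefh, Ina, Vim, Gfap, Nes and Synm. They are 8 of the 55536 annotated genes in the data, all 8 were found, and none was chosen for its measured value. Total RNA came from the left side of the cerebral cortex of males aged 25 days. Their strain was B6CASTF1/J, the hybrid offspring of C57BL/6J and CAST/EiJ parents. The labels name no treatment and give 1 group with 2 samples, here replicate 1 and replicate 2, each prepared from 300 ng of RNA. Both carry the same donor entry in the labels, so that they are separate animals rests on the words biological replicate and on separate tissue numbers. The SD measures the spread between these samples, which may be technical. The libraries held 30503944 expected counts in replicate 1 and 33263801 in replicate 2. With 1 group there was no contrast between conditions and no test was run: values are levels, given for each animal or as the mean ± SD of both (n = 2), and differences between these libraries only.

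Intermediate filaments are rope-like protein polymers that give cells mechanical strength, and each cell type builds them from its own set of subunits. Neurons assemble neurofilaments from a light, a medium and a heavy subunit together with alpha-internexin, and these filaments fill large axons and set their calibre. Astrocytes build theirs from GFAP and vimentin, while nestin is known from neural progenitors and from blood vessel cells, and synemin joins filaments to other structures.

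The 3 neurofilament subunits differ most in their tails, and the coding sequences below show how. Repeats of lysine, serine and proline in the tail are sites of phosphorylation in axons. Codon triplets for them were searched in frame on the coding strand, as AAA or AAG, then TCN, AGC or AGT, then CCN. Nefh had 51 such triplets in 1090 codons, the highest number of 21556 genes with a complete coding sequence. Nefm had 4 in 848 codons and Nes 5 in 1864, while Nefl, Ina, Vim, Gfap and Synm had 0. Of all these genes, 10.6% had at least 1 triplet and 0.0789% had at least 5. Glutamate codons made up 17.9% of Nefl codons, against a median of 6.35% over all genes, and all 8 genes were above it. Nefm had 21.1%, Nes 18.7% and Nefh 16.8%, and the others ran from 11.8% for Vim to 14.0% for Gfap. The window of 150 coding bases with the most triplets is shown for Nefh, at chr11:4940920-4941069 on the minus strand, and for Nefm, at chr14:68121063-68121212 on the minus strand. For Nefl the window with the most glutamate codons is shown, at chr14:68086746-68087396 on the plus strand, where it spans an intron. Capitals mark the triplets in Nefh and Nefm and the glutamate codons in Nefl. Sequences are from GENCODE M21 on mm10, 5′ to 3′.
Nefh-201: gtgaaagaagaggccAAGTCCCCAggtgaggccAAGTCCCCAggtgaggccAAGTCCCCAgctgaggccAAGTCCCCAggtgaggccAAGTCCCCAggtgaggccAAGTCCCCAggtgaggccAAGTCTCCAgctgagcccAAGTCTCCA
Nefm-201: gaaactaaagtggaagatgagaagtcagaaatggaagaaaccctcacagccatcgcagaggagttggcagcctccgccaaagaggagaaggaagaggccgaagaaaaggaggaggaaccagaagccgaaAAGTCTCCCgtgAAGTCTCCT
Nefl-201: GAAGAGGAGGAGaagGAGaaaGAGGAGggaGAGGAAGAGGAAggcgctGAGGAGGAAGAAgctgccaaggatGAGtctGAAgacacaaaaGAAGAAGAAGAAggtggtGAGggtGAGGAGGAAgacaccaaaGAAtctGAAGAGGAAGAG
The Nefh window held 8 triplets and the Nefm window 2, and 30 of the 50 codons in the Nefl window were for glutamate.

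By exon lengths the 8 genes fell into 2 classes. The genes were not chosen by exon structure, but the lengths were picked from these same genes. Of the 8 genes, 6 had an internal coding exon of 125 bases: Nefl, Nefm, Nefh, Ina, Nes and Synm. This length was picked because most of the 8 genes share it. It was found in 0.634% of 165374 internal coding exons in the annotation, a share of exons and not of genes. Vim and Gfap instead shared a run of 7 consecutive exons of 61, 96, 162, 126, 221, 44 and 86 bases, and they were the 2 genes of the annotation with that run. Des, the muscle filament gene desmin, shared the first 6 of these lengths.

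**Figure D1:**
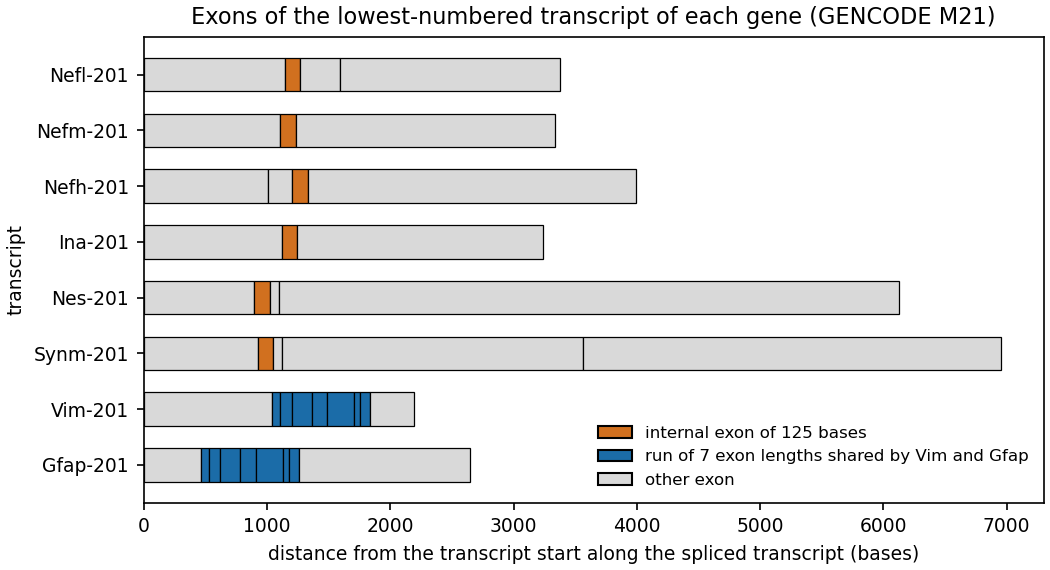
Exons of the lowest-numbered transcript of each gene, drawn end to end in order of transcription, with the distance from the transcript start in bases on the horizontal axis. The 6 upper transcripts each have 1 internal exon of 125 bases (orange), and Vim and Gfap share a run of 7 exon lengths (blue).

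Nefl, Ina and Nefm, all of neurons, were the 3 most abundant of the 8, while Nefh stood below Gfap and Vim. Levels are in TPM (transcript abundances scaled to a fixed total), which are corrected for transcript length and can be compared between genes. Nefl (ENSMUSG00000022055.7, mm10 chromosome 14, 68083863 to 68089095, plus strand), the light subunit on which the other neurofilament subunits assemble, had 150.8 TPM in replicate 1 and 150.1 TPM in replicate 2. It was the highest of the 8 genes in both animals and ranked 514 of 22028 protein-coding genes by mean TPM. Ina (ENSMUSG00000034336.3, chromosome 19, 47014698 to 47025327, plus strand), alpha-internexin, which joins neurofilaments in the central nervous system, came next, with 89.2 TPM in replicate 1 and 92.0 TPM in replicate 2. Nefm (ENSMUSG00000022054.11, chromosome 14, 68082590 to 68124846, minus strand), the medium subunit, had 64.6 TPM in replicate 1 and 67.3 TPM in replicate 2. Nefh (ENSMUSG00000020396.8, chromosome 11, 4938754 to 4948064, minus strand), the heavy subunit whose repeats are shown above, was the lowest of these 4. It had 15.6 TPM in replicate 1 and 18.0 TPM in replicate 2, and ranked 6125. Ina ranked 1068 and Nefm 1583.

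The genes of astrocytes, vessels and progenitors were lower than Nefl, Ina and Nefm, and spread over a wide range. Gfap (ENSMUSG00000020932.14, chromosome 11, 102887336 to 102900912, minus strand), the astrocyte filament protein, had 45.5 TPM in replicate 1 and 51.4 TPM in replicate 2, at rank 2265. Vim (ENSMUSG00000026728.9, chromosome 2, 13573927 to 13582826, plus strand), vimentin, found in astrocytes, vessel cells and fibroblasts, had 28.1 TPM in replicate 1 and 24.6 TPM in replicate 2, at rank 4310. Synm (ENSMUSG00000030554.16, chromosome 7, 67730160 to 67759742, minus strand), synemin, stood with 7.68 TPM in replicate 1 and 7.33 TPM in replicate 2, at rank 9114. Nes (ENSMUSG00000004891.16, chromosome 3, 87971078 to 87980451, plus strand), nestin, was the lowest of the 8, with 3.10 TPM in replicate 1 and 2.69 TPM in replicate 2, at rank 11362. Its 316 counts in replicate 1 and 331 in replicate 2 had exact Poisson 95% intervals of 282 to 353 and of 296 to 369, which cover counting error only. The progenitor genes beside it included Sox2 at 18.6 ± 0.69 TPM and Hes5 at 16.9 ± 1.80 TPM, and at the low end the proliferation gene Top2a at 0.45 ± 0.19 TPM and Eomes, of intermediate progenitors, at 0.075 ± 0.035 TPM.

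The order of the 8 genes was the same in both animals, and no pair of neighbours in it overlapped. The means ran from 150.4 ± 0.45 TPM for Nefl and 90.6 ± 1.96 TPM for Ina through 65.9 ± 1.93 TPM for Nefm and 48.5 ± 4.18 TPM for Gfap. Below these came Vim at 26.4 ± 2.503 TPM, Nefh at 16.8 ± 1.73 TPM, Synm at 7.51 ± 0.25 TPM and Nes at 2.90 ± 0.29 TPM. In bulk tissue fewer cells of a type and less RNA per cell cannot be told apart, so a level is a property of the tissue piece and not of a cell.

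**Figure D2:**
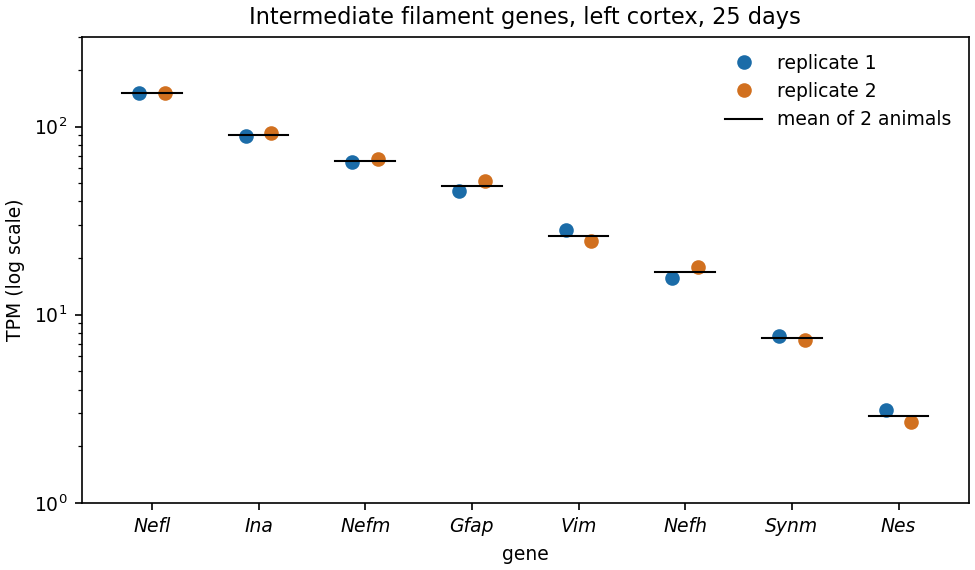
Level of each gene in TPM, on a logarithmic axis, in replicate 1 (blue) and replicate 2 (orange), with the mean of the 2 animals as a line. The genes fall in the same order in both animals, from Nefl near 150.4 TPM to Nes near 2.90 TPM.

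The 3 subunits and Ina stood in similar proportions in both animals. Together they made 320.1 TPM in replicate 1 and 327.4 TPM in replicate 2. Nefl provided 47.1% of this sum in replicate 1 and 45.8% in replicate 2, Ina 27.9% and 28.1%, Nefm 20.2% and 20.5%, and Nefh 4.87% and 5.51%. The ratio of Nefl to Nefm was 2.34 in replicate 1 and 2.23 in replicate 2, and that of Ina to Nefm was 1.38 and 1.37. Light subunit RNA was therefore above medium subunit RNA in both animals. The ratio of Nefh to Nefm was 0.242 in replicate 1 and 0.268 in replicate 2, and that of Nefh to Nefl was 0.103 and 0.120. Of the ratios among these 4 genes, those with Nefh differed most between the animals on the log2 scale. The second transcript table, a separate estimate from the same reads, gave Nefh to Nefm at 0.282 in replicate 1 and 0.299 in replicate 2, both above the gene table.

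**Figure D3:**
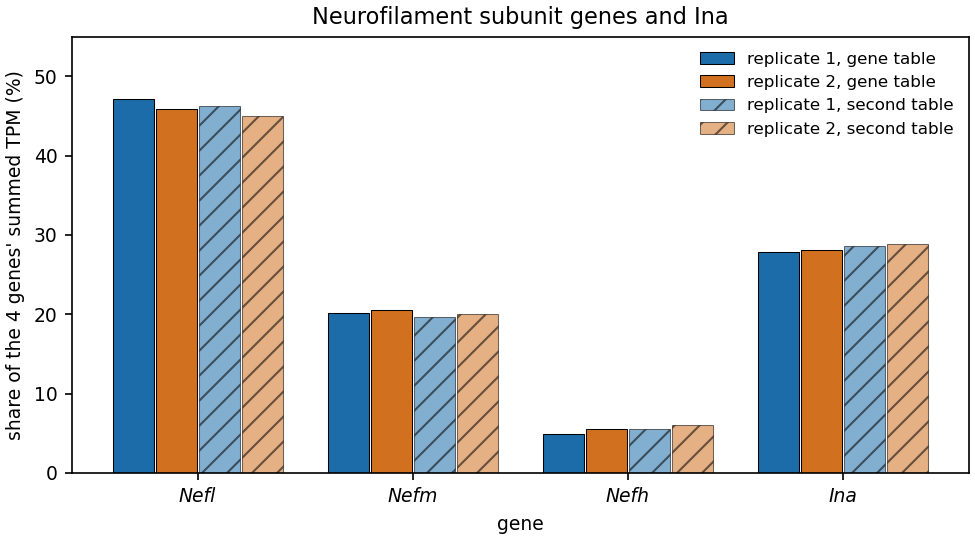
Share of each gene in the summed TPM of Nefl, Nefm, Nefh and Ina, in percent, for replicate 1 (blue) and replicate 2 (orange), from the gene table (solid) and the second transcript table (hatched). Nefl takes between 45.0% and 47.1% and Nefh between 4.87% and 5.99% in the 4 estimates.

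Set against the filament genes of other cells, the sum of Nefl, Nefm, Nefh and Ina was 4.17 times the sum of Vim, Gfap and Nes in replicate 1 and 4.16 times in replicate 2. The ratio of Vim over Gfap was less stable, at 0.618 in replicate 1 and 0.478 in replicate 2. As vimentin is also found in vessel cells and fibroblasts, this is a ratio of the tissue and not of astrocytes alone. Nes over Vim was 0.110 in replicate 1 and 0.109 in replicate 2. Synm over Vim was 0.273 and 0.298.

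Gfap was represented mainly by its standard form. Gfap-201, with 9 exons and 430 codons, made 90.8% of the gene's TPM in replicate 1 and 91.9% in replicate 2. Gfap-202, with 8 exons and 428 codons, made 9.17% in replicate 1 and 8.07% in replicate 2, on 210 and 233 expected counts. It has the structure described for the delta form of GFAP, in which another last exon takes the place of the last ones of the standard form and gives the protein a different tail. Gfap-203, a short transcript without a coding sequence, was listed with 0 counts in both animals, which still leaves room for 3 counts by counting error. The second transcript table gave Gfap-202 a larger share, 14.9% in replicate 1 and 14.2% in replicate 2. The minor form was thus between 8.07% and 14.9% of Gfap RNA, and the 2 tables differed more than the 2 animals did.

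Nes had the least settled transcript shares. Nes-201, the full-length form of 1864 codons, made 46.6% of the gene's TPM in replicate 1 and 42.4% in replicate 2 in the first transcript table, and 65.6% and 85.5% in the second. Nes-203, which lacks 132 bases or 44 codons, made 34.4% in replicate 1 and 47.6% in replicate 2 in the first table, but 5.64% and 0.868% in the second. The first table's estimates rested on 125.9 counts in replicate 1 and 169 in replicate 2, and the authors' own credibility bounds for Nes-203 ran from 0.446 to 1.64 TPM and from 0.549 to 1.85 TPM. The missing segment, at chr3:87976581-87976712 on the plus strand, belongs to a tandem repeat. It was 98.5% identical to the 132 coding bases that follow it and 66.7% identical to those before it. Whether the repeat accounts for the gap between the tables was not tested. The segment is shown in capitals with 9 bases on either side, the bases after it matching its start.
Nes-201: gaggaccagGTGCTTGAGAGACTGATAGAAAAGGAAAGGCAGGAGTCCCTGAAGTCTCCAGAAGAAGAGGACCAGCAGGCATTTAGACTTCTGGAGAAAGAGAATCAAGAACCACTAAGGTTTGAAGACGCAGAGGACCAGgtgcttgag
The retained-intron form Nes-202 made 18.97% in replicate 1 and 10.04% in replicate 2, on 14.3 and 7.30 counts.

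Vim was split between 2 coding forms in proportions that depended on the table. In the first table Vim-206 made 50.4% in replicate 1 and 55.4% in replicate 2, and Vim-201 made 23.9% and 23.0%. In the second table Vim-201 led instead, with 56.5% in replicate 1 and 59.3% in replicate 2, while Vim-206 had 32.5% and 30.6%. Vim-206 starts 329 bases further on and skips an exon of 86 bases at chr2:13581613-13581698, plus strand, which shifts the reading frame and leaves 427 codons in place of 466. The skipped exon is shown in capitals with 9 coding bases of each neighbouring exon.
Vim-201: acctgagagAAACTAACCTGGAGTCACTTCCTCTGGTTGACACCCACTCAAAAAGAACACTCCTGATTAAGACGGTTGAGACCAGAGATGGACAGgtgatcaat
Vim-203, a fragment of 535 bases annotated as a retained intron, took 24.7% in replicate 1 and 20.6% in replicate 2 in the first table, on 60.98 and 49.63 counts, and 9.84% and 8.99% in the second. Because it is short, few counts make a large TPM share: by counts it held 7.27% and 5.86%.

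Synm was mainly made of its 2 long forms, and Nefl, Nefh and Ina have 1 annotated transcript each. Synm-201, with 1259 codons, made 56.6% in replicate 1 and 53.6% in replicate 2, and Synm-202, which keeps a further 906 coding bases in the tail, made 41.0% and 37.2%. The second table gave 49.7% and 54.2% for Synm-201 and 39.5% and 39.2% for Synm-202. Of the short forms, Synm-204 had 2.34% and 8.88% in the first table and 0 in the second, where Synm-203 had 10.8% and 6.60%. Nefm-201 made 98.2% of Nefm in replicate 1 and 98.1% in replicate 2.

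**Figure D4:**
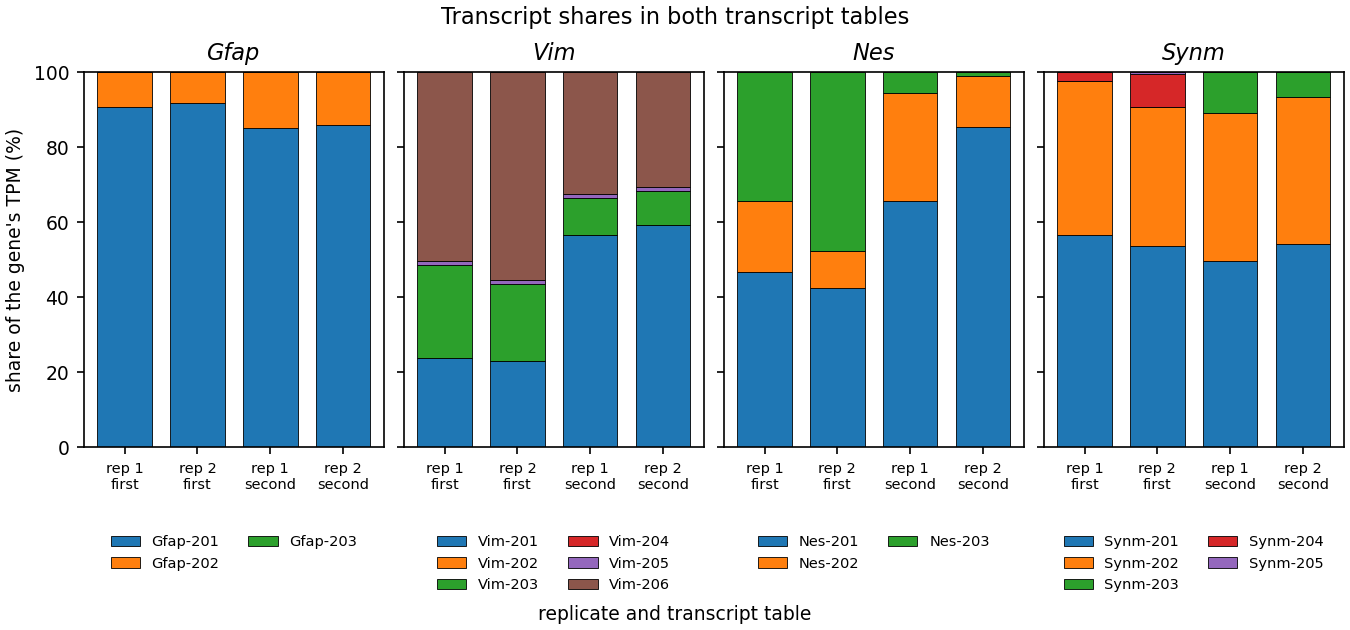
Share of each annotated transcript in its gene's TPM, in percent, for Gfap, Vim, Nes and Synm; in each panel the left pair of bars is replicate 1 and replicate 2 in the first transcript table and the right pair the same animals in the second. For Gfap the tables differ by a few percentage points, while the leading form changes with the table for Vim in both animals and for Nes in replicate 2.

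By TPM, the sizes of the differences between the animals in these genes lay on both sides of the median over all genes. A difference of 0.32 on the log2 scale of TPM + 0.5 is used as a first mark of distance. None of the 8 was that far apart between replicate 1 and replicate 2, where 14.4% of the 18136 genes whose counts averaged 10 or more were. None was 2-fold apart, where 0.7% of those genes were. The median log2 of replicate 1 over replicate 2, on TPM + 0.5, was -0.02 over the 8 and 0.03 over all 18136. Signs cancel in such medians, and without sign the median over all 18136 was 0.11. Nefh, Vim, Gfap and Nes lay above 0.11 without sign, and Nefl, Ina, Nefm and Synm below. That background reaches down to a mean count of 10, below the counts of all 8 genes, and was not matched to them. For 4 of the 8, Nefm, Nefh, Ina and Gfap, the 95% counting interval excluded 0 (exact binomial, on TMM-scaled counts), all lower in replicate 1. Of all genes tested 21.4% had such an interval, and 9.88% had one on that side. The interval covers counting error only and narrows with the counts, which ran from 316 to 11090 for the 8 genes.

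Nefh and Gfap had the largest differences among the 4. Nefh had 1222 counts in replicate 1 and 1581 in replicate 2, with a log2 difference of -0.20 by TPM and a counting interval from -0.35 to -0.13. Gfap had 2330 counts in replicate 1 and 2946 in replicate 2, with a log2 difference of -0.17 and an interval from -0.29 to -0.13. The authors' deposited credibility bounds of TPM did not overlap for either gene: for Nefh they were 14.3 to 15.9 in replicate 1 and 16.6 to 18.4 in replicate 2. Ina, at -0.04, and Nefm, at -0.06, were close to 0. Vim differed by 0.19, Nes by 0.17 and Synm by 0.06, with counting intervals that held 0, and Nefl by 0.01.

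Cell type markers differed between the animals in both directions. Gfap was lower in replicate 1, while 7 of 9 astrocyte genes were higher there by TPM, with a summed level of 1709 TPM in replicate 1 and 1553 TPM in replicate 2. Of that list Sox9, at 10.3 and 11.3 TPM, was lower in replicate 1, with a counting interval from -0.30 to -0.03. Aqp4, at 41.4 and 41.7 TPM, and S100b, at -0.03 in log2 on TMM-scaled counts, had counting intervals that held 0. So did Aldh1l1 and Aldoc. The intervals of Slc1a2, Slc1a3, Gja1 and Gjb6 lay above 0. Slc1a2 was the highest of the list, with 899.1 TPM in replicate 1 and 796.3 TPM in replicate 2, and made most of the gap between the sums. All 6 myelin genes of oligodendrocytes were lower in replicate 1, at a summed 867 TPM in replicate 1 and 1159.7 TPM in replicate 2. The 4 neuron markers summed to 2299.7 TPM in replicate 1 and 2250.2 TPM in replicate 2, and each was higher in replicate 1 by TPM. On TMM-scaled counts Eno2 was lower in replicate 1, at -0.04 in log2 with an interval from -0.07 to -0.01. Syt1 was higher there, at 0.05 with an interval from 0.04 to 0.07. Rbfox3, at 0.02, and Snap25, at 0.00, had intervals that held 0. The summed endothelial genes had 113 TPM in replicate 1 and 96.7 TPM in replicate 2, with 3 of 5 higher in replicate 1. Slc2a1 alone, with 58.8 TPM in replicate 1 and 41.5 TPM in replicate 2, differed by more than the sum did. The counting intervals of Slc2a1 and Flt1 lay above 0, those of Cldn5 and Tek below 0, and that of Pecam1 held 0. The 5 mural genes had 74.0 and 71.0 TPM and the 5 fibroblast genes 97.93 and 98.02 TPM. The 6 progenitor genes had 39.9 and 39.4 TPM, most of it from Sox2 and Hes5. Of the 5 progenitor genes averaging 10 counts or more, Hes5 was higher in replicate 1 and the other 4 lower, with a median log2 of -0.25. The 4 ependyma and choroid genes, whose cells also make vimentin, summed to 22.3 TPM in replicate 1 and 197 TPM in replicate 2, nearly all of it Ttr, at 19.5 and 191.9 TPM. The 3 microglia genes had 69.8 and 71.3 TPM, the 4 interneuron genes 406.9 and 411 TPM, and the 2 oligodendrocyte precursor genes 28.4 and 27.4 TPM. No marker in these lists was at 0 in both libraries, and their part in the differences was not tested.

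**Figure D5:**
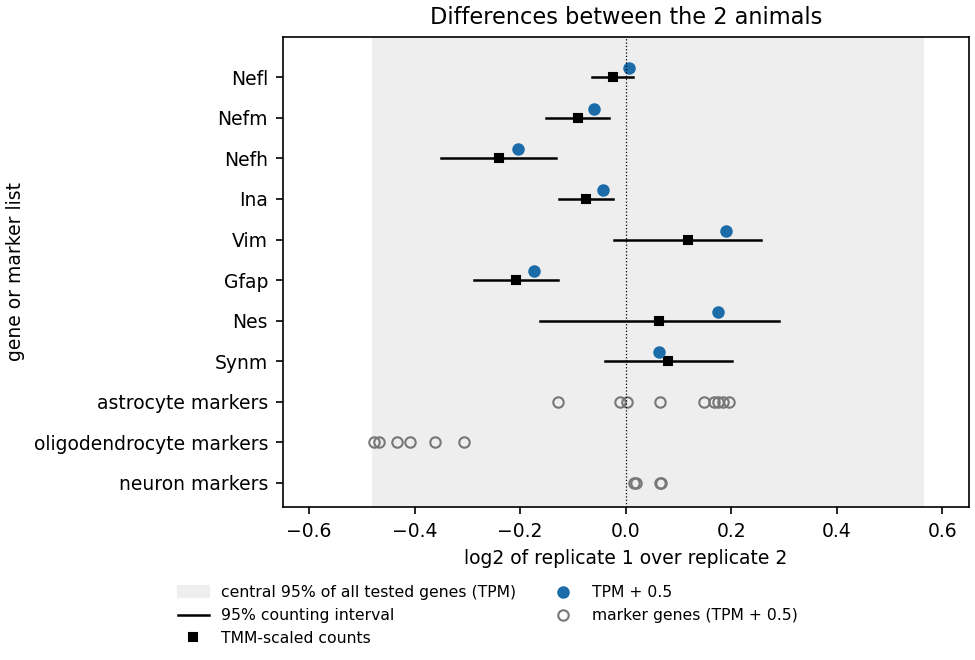
Log2 of replicate 1 over replicate 2 for the 8 genes by TPM + 0.5 (blue) and by TMM-scaled counts (black squares) with 95% counting intervals (lines), and for marker genes of 3 cell types (open circles). The grey band is the central 95% of all 18136 genes tested, from -0.48 to 0.56; all 8 genes lie inside it, and the 6 myelin genes lie between -0.48 and -0.31.

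Most other filament genes were below 1 TPM, though Lmna stood above Nefh and Krt222 above Synm. Of 42 further genes of the superfamily, 9 reached 1 TPM in both animals, and 11 had 0 counts in both. Over all protein-coding genes 12830 of 22028 reached 1 TPM in both animals. The nuclear lamina genes were among the higher, Lmna at 21.7 ± 0.56 TPM, Lmnb2 at 7.18 ± 0.85 TPM and Lmnb1 at 4.04 ± 0.45 TPM. The keratin family genes were Krt222 at 12.3 ± 1.06 TPM, Krt77 at 5.68 ± 0.22 TPM, Krt10 at 5.02 ± 0.099 TPM, Krt12 at 4.54 ± 0.035 TPM, Krt9 at 1.43 ± 0.26 TPM and Krt1 at 1.09 ± 0.014 TPM. Of the close relatives, Prph, the neurofilament partner of peripheral neurons, stood at 0.59 ± 0.19 TPM, Des at 0.49 TPM in each animal and Sync at 0.72 ± 0.18 TPM. Of the 42 genes 16 had a mean count of at least 10, and 3 of these were at least 0.32 apart on the log2 scale, where 14.4% of all genes tested were: Prph and Bfsp2, lower in replicate 1, and Krt73, higher in replicate 1. The counting intervals of Prph, on 15 counts in replicate 1 and 27 in replicate 2, and of Krt73, on 36 and 26, held 0. That of Bfsp2 did not. Bfsp2 and Krt73 were named after their values were seen.

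RNAs for proteins that move and modify neurofilaments were all detected, and those for linkers in part. Of the linkers that tie filaments to other parts of the cell, 5 of 9 reached 1 TPM, led by Dst at 107.8 ± 6.10 TPM, Macf1 at 92.5 ± 5.83 TPM and Plec, plectin, at 65.5 ± 8.49 TPM, while Eppk1 was lowest at 0.04 ± 0.014 TPM. Plec, with 71.5 TPM in replicate 1 and 59.5 TPM in replicate 2, had a log2 difference of 0.26. All 13 genes of filament transport, turnover and RNA binding were detected. They were led by the motor genes Kif5a at 422.5 ± 9.11 TPM and Kif5c at 257.4 ± 7.59 TPM, with Nde1, a regulator of the motor dynein, lowest at 7.39 ± 0.36 TPM. All 16 kinase and phosphatase genes were detected, including the Cdk5 activator genes Cdk5r2 at 194.3 ± 2.31 TPM and Cdk5r1 at 155.6 ± 7.41 TPM, with Rock1 lowest at 11.3 ± 1.15 TPM. None of the genes in these last 2 lists was 0.32 or more apart on the log2 scale between the animals, and 1 of the 9 linkers was, against the same 14.4% of all genes tested. This was Dsp, named after its values were seen, with 0.22 TPM in replicate 1 and 0.07 TPM in replicate 2, while its counts of 8 in replicate 1 and 13 in replicate 2 ran the other way.

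Some of the 8 genes share exon sequence with a gene on the other strand. The longer Nefm transcript, Nefm-202, runs on into Nefl and shares 1108 of its 3680 bases with it on the opposite strand. It was estimated with 1.14 TPM in replicate 1 and 1.28 TPM in replicate 2, or 1.77% and 1.90% of Nefm, and the second table gave 1.81% and 1.91%. Ina shares 456 bases with Nt5c2, at 33.6 and 32.5 TPM, and Synm shares 426 bases with Gm45102, with 0.26 and 0.41 TPM, and 84 with Ttc23, at 2.14 and 3.10 TPM. Whether the counting used strand is not given in the sources used here, so reads from these stretches cannot be assigned with certainty.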

How the data were processed

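Per the file lists deposited with each library, the tables are on mm10 with GENCODE M21. Expected counts and TPM fill the deposited gene table and one transcript table, whose columns carry RSEM's names. Another deposited transcript table, with kallisto's names per the file headers, gives estimated counts with TPM. The authors also deposited credibility bounds of TPM, treated as signal values here. The aligner, and any program version, is not given in the sources used here. TPM sums over all rows, so that protein-coding genes took 482646 TPM in replicate 1 and 478222 in replicate 2 in the gene table. How reads of the CAST/EiJ allele mapped to mm10 was not tested.

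Library totals were 30503944 and 33263801 expected counts. Numbered rows that name no gene held 7 and 10 counts, 2.3e-05% and 3.0e-05%, and stayed out of library sizes. Replicate numbers come from the labels. The tables differ by more than sampling noise, so they are not copies. Expected counts were rounded for TMM scaling (edgeR 4.0.16) and size factors (DESeq2 1.42.0, R 4.3.3). Other steps used scipy 1.17.1, pandas 2.3.3 and numpy 2.4.6 in Python 3.11.15, with figures from matplotlib 3.10.9. Counting intervals are exact. On counts simulated with counting error only, 100 genes changed 2-fold had a median log2 of 1.00, and 95.8% of 17974 unchanged genes had an interval that held 0.

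The members, lists and quantities were chosen with earlier results of these data known. Named were all 8 members, other filament genes at 1 TPM or more in both animals, and transcripts of at least 5%. Of other lists, up to 4 of the highest and the lowest were named. Prph, Des, Sync, Aqp4, S100b, Gjb6, Aldh1l1 and Dsp were added because a result touches them. No gene was named for likeness of pattern, since 2 samples of 1 condition give none. Some results that the rule would name are not reported here.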

Additional observations from a re-analysis of the deposited data

How the results depend on the processing

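Levels depended on the table and on what TPM is summed over, ratios between the genes less, and transcript shares within Vim and Nes more. The sum of the 8 genes was 409.0 TPM, and 397.6 by posterior mean TPM, 604.0 in the second transcript table and 851.3 with TPM over protein-coding genes only. In the second table the log2 ratio of Nefh over Nefm was -1.78 in place of -1.97, and that of Ina over Nefm 0.54 in place of 0.46. The log2 ratio of the neuronal over the other filament genes, 2.06 ± 0.0027, was 2.04 by posterior mean TPM, 2.09 in the second table and 2.08 by counts per kb. The share of Gfap-202 was 14.6% in the second table, against 8.62%, that of Vim-201 57.9% against 23.5%, and that of Nes-203 3.25% against 41.0%. None of the 8 genes reached 0.32 in log2 between the animals under the 7 alternatives tried. Nefl changed sign (-0.03 to 0.01), and the other 7 genes kept their direction under all 7. Over all genes, 2607 were at least 0.32 apart, 5246 with no count minimum and 873 at a mean count of at least 100. By TMM-scaled counts 3383 were, and with TPM + 0.1 3715 were. For 2-fold the counts were 127, 577 and 26, and 469 by TMM-scaled counts and 361 with TPM + 0.1. Leaving out replicate 1 or replicate 2 leaves 1 animal and moves a mean of 2 by less than 1 SD by construction. No paired analysis was possible because there is 1 group. Nes shares rest on 316 and 331 counts, and the cause of the gap between tables was not tested.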

Other observations

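Among the other filament genes averaging 10 or more counts, Bfsp2, a filament gene of the eye lens, differed most between the animals. Bfsp2 had 25 counts or 0.99 TPM in replicate 1 and 61 counts or 2.42 TPM in replicate 2. It was named after its values were seen. On TPM + 0.5 it differed by -0.97 in log2, and on TMM-scaled counts its 95% interval ran from -1.89 to -0.46.

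The gene table stood below the second table for all 8 genes. The ratio of the gene table to the second table lay between 0.595 for Nefh and 0.741 for Vim in replicate 1, and between 0.619 for Nefh and 0.716 for Vim in replicate 2. The median over 14492 protein-coding genes averaging 10 or more counts was 0.634 in replicate 1, and over 14497 it was 0.629 in replicate 2. Nefh was the lowest of the 8 in both animals and below the median. It lay within the 5th to 95th percentiles, 0.411 to 0.833 in replicate 1 and 0.406 to 0.819 in replicate 2. With TPM over protein-coding genes only, Nefh had 32.3 in the gene table and 32.9 in the second in replicate 1. In replicate 2 these were 37.7 and 36.5. Whether the triplet repeats of Nefh bear on its ratio was not tested.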
